A study of Mus musculus with 24 samples.

Results

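The expression of 7 genes listed as supporting cell markers, Fgfr3, Prox1, Gjb2, Gjb6, Slc1a3, Fabp7 and Cdkn1b, was followed in cultured mouse organs of Corti (OCs). The members were the rows of the count table whose Entrez identifier maps to these mouse symbols, and all 7 were found among 24454 genes. OCs came from C57BL/6N pups of both sexes at 5 days of age, and each library held RNA pooled from 6 OCs. After a first day in culture without drugs, OCs were kept for 6 h or 24 h in medium alone (CTRL), with 50 µM gentamicin (GM), an aminoglycoside antibiotic that kills hair cells, with 10 µM of the diabetes drug pioglitazone (PIO), which activates the nuclear receptor PPAR-γ, or with GM and PIO together (PIO + GM), with 3 libraries in each of the 8 groups. All groups, CTRL included, were grown in the same serum-containing medium with penicillin, no gene was altered in any of them, and a library mixed hair cells, supporting cells and the other cells left after dissection.

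Supporting cells surround the hair cells and hold them in place, and they do not divide in the mature mouse OC. Pillar and Deiters cells express the FGF receptor gene Fgfr3 and the transcription factor gene Prox1, and the cell cycle brake Cdkn1b keeps supporting cells out of division. Gap junctions made of the products of Gjb2 and Gjb6 join supporting cells, and also fibrocytes of the lateral wall, into a network through which potassium and small metabolites pass. Slc1a3 encodes the glutamate transporter GLAST, which clears glutamate around the inner hair cells, and Fabp7 encodes a fatty acid binding protein of glia that is also found in supporting cells.

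Sequencing depth ranged from 7211357 to 15548856 counted reads per library. The smallest count of any member in a library was 106 (Prox1) and the largest 11560 (Gjb2), so that all 7 passed the filter on low counts together with 16317 genes in all. The limit that a count of 0 allows, 3 counts, lay between 0.193 and 0.416 on the counts-per-million scale (CPM) and therefore far below each member. Libraries differed in the summed CPM of 32 other supporting cell and epithelial ridge genes, and the lowest of each of the 8 groups were CTRL replicate 2, GM replicate 3, PIO replicate 3 and PIO + GM replicate 1 at 6 h, and replicate 2 of every group at 24 h. Those 8 libraries held 5920 to 9650 summed CPM of that list and the other 16 held 9550 to 14600, and calls that change without the 8 are given both ways. The genes with the highest levels in that sum were Tectb, Tecta and Epyc (means of 4100, 1920 and 1840 CPM), so a low sum mainly reflects these genes.

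Levels of different genes were compared per length, as RPKM, which divides CPM by the length in kilobases. Gjb2 had the highest level of the members, with a mean of 215 RPKM over the 24 libraries (90.2 to 332), and only 118 of the 24454 genes had a higher mean. Slc1a3 followed with 64.5 RPKM (42.4 to 101), Gjb6 with 59.8 (20.1 to 94.2), Cdkn1b with 46.7 (32.8 to 67.4) and Fabp7 with 40.5 (12.7 to 90.0). Fgfr3 had 23.0 RPKM (8.12 to 40.9) and Prox1 the lowest level, 3.55 RPKM (1.74 to 5.64). Ranges of neighbours in this order overlapped, except that the lowest Fgfr3 library lay above the highest Prox1 library.

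Each member lies on its own chromosome except the connexin pair. On GRCm38.p6, Gjb2 occupies chr14:57098602-57104702 and Gjb6 chr14:57123301-57133611, both on the minus strand and 18598 bases apart. Fgfr3 lies at chr5:33721724-33737068 (plus strand), Prox1 at chr1:190118035-190170827 (minus), Slc1a3 at chr15:8634124-8710807 (minus), Fabp7 at chr10:57784923-57788450 (plus) and Cdkn1b at chr6:134920401-134925525 (plus). No window of 76 bases, the read length, in GENCODE transcripts of Gjb2, Gjb6, Fabp7 or Cdkn1b occurred in a transcript of another gene, and 0.223% of those of Slc1a3 did (Gm43728). For Fgfr3, 9.91% of the windows also lay in the antisense gene G630022F23Rik and for Prox1 0.691% in the antisense gene Prox1os, and whether counting used the strand was not given, so reads of these pairs may not have been told apart.

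Gjb2 and Gjb6 are neighbours whose levels went together from library to library, and Fabp7, like Slc1a3, went against them at 6 h (values below). For Gjb2, Gjb6 and Fabp7 the 250 bases before the RefSeq start are shown 5′ to 3′ on the strand of the gene. Capitals mark the letters searched on both strands. These were the GC box GGGCGG, the TATA box TATAAA, the CCAAT box, the Sox motif ACAAT and the motif AGGTCA, the core that nuclear receptors bind.
Gjb2, chr14:57104703-57104952: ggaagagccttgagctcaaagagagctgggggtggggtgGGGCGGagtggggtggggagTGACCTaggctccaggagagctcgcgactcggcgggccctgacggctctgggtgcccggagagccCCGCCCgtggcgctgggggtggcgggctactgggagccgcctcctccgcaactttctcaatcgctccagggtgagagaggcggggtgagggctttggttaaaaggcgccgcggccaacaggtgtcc
Gjb6, chr14:57133612-57133861: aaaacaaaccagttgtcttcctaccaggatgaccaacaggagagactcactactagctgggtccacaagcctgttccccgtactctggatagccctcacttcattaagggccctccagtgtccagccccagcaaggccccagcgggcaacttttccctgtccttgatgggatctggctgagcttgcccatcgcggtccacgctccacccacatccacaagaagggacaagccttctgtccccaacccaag
Fabp7, chr10:57784673-57784922: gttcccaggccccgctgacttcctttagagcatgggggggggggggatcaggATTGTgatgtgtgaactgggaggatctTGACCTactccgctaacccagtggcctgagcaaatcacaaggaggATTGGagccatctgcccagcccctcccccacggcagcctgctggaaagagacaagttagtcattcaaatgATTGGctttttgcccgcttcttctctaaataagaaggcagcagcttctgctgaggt
The Gjb2 window held 2 GC boxes and 1 AGGTCA, and the Fabp7 window 2 CCAAT, 1 AGGTCA and 1 ACAAT. The Gjb6 window held no match to any of the letters. Among 32851 RefSeq promoters of 300 bases (250 before and 50 after the start), 35.7% held a GC box, 37.4% CCAAT, 31.0% ACAAT, 16.3% AGGTCA and 13.6% TATAAA. The promoter of Gjb2 had 70.0% G + C, above that of 90.4% of all promoters, and a ratio of observed to expected CpG of 0.76. That of Gjb6 had 57.3% G + C and a CpG ratio of 0.25, and that of Fabp7 54.0% and 0.28, against medians of 52.7% and 0.38 over all promoters. The neighbouring connexin genes thus differed in the composition of their promoters, which is a description of the sequence and says nothing of what binds there.

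The first comparison asked whether the members changed between 6 h and 24 h of treatment. Over the 4 treatments together, 6 of the 7 members were higher at 24 h (Benjamini-Hochberg adjusted p under 0.05 over all genes tested, edgeR quasi-likelihood test), in the order Gjb6, Gjb2, Fabp7, Fgfr3, Slc1a3 and Cdkn1b, while Prox1 did not pass the test. Time moved much of the transcriptome: 62.6% of the 16317 genes passed in this comparison and 31.9% were higher. Counts of list genes called over time below are to be read against these shares. The median log2 fold change of the members was 0.50, beside 0.02 for all genes tested. Libraries at 6 h and 24 h come from different OCs, and with pooled tissue more cells of a type and more RNA per cell cannot be told apart.

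**Figure D1:**
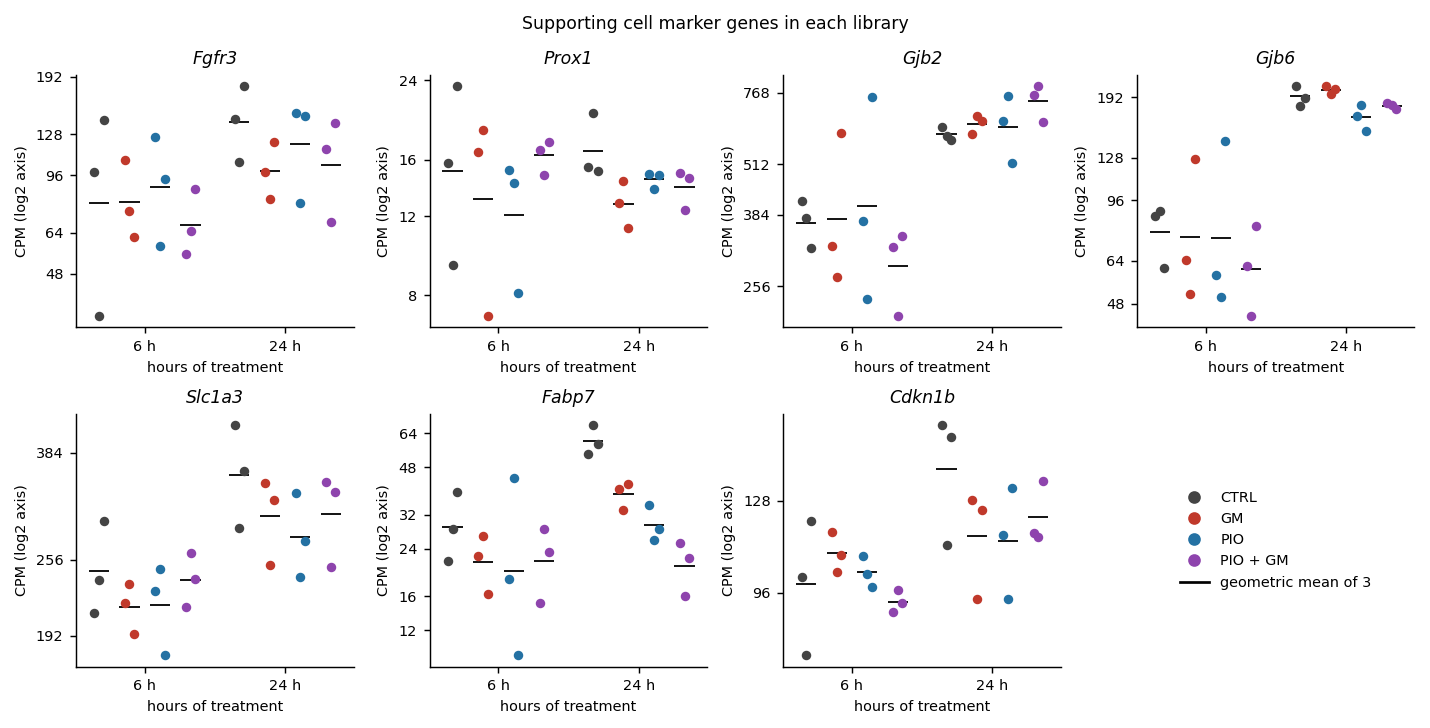
Expression of the 7 genes in CPM (log2 axis) in each library, by hours of treatment (6 h left, 24 h right) and treatment (colour). Points are libraries and lines the geometric mean of 3; all 12 Gjb6 libraries at 24 h lie above all 12 at 6 h, and Fabp7 at 24 h is highest in CTRL and lowest in PIO + GM.

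Among the gap junction genes, Gjb6 at 6 h measured 86.4, 89.4 and 61.0 CPM in CTRL, 64.5, 51.2 and 127 CPM in GM, 58.3, 50.1 and 143 CPM in PIO and 61.6, 44.2 and 80.9 CPM in PIO + GM. At 24 h it measured 207, 182 and 192 CPM in CTRL, 207, 196 and 203 CPM in GM, 170, 182 and 153 CPM in PIO and 184, 182 and 178 CPM in PIO + GM. Each of the 12 libraries at 24 h (153 to 207 CPM) was therefore above each of the 12 at 6 h (44.2 to 143 CPM), with the third libraries of GM and PIO as the highest at 6 h. Of all genes tested 5.99% had such a separation. The rise was 2.45-fold (log2 fold change 1.29 ± 0.16 SE, edgeR adjusted p = 1.43e-06), and only 2.93% of the genes tested had a larger one. Gjb6 was the member called in each treatment on its own, at 2.45-fold in CTRL, 2.5-fold in GM, 2.00-fold in PIO and 2.92-fold in PIO + GM (edgeR adjusted p = 0.0064, 0.00636, 0.0268 and 0.00157). In PIO the Gjb6 call was lost when the 6 libraries compared were fitted alone (edgeR adjusted p = 0.12) and without replicate 1 or 2 at either time (0.0604 to 0.142).

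Gjb2 at 6 h measured 416, 377 and 318 CPM in CTRL, 322, 270 and 609 CPM in GM, 371, 239 and 748 CPM in PIO and 321, 217 and 341 CPM in PIO + GM. At 24 h the 12 libraries lay between 516 and 797 CPM with a median of 651 CPM. The 2 libraries that were high for Gjb6 at 6 h, GM replicate 3 and PIO replicate 3, were the ones that reached into the 24 h range of Gjb2, and the other 10 lay below it. Over the 4 treatments Gjb2 rose 1.75-fold (log2 fold change 0.81 ± 0.16 SE, edgeR adjusted p = 0.000176). By treatment it passed in PIO + GM, where the 3 libraries at 24 h measured 758, 797 and 650 CPM (2.51-fold, edgeR adjusted p = 0.00336), and gave 1.64-fold in CTRL, 1.61-fold in GM and 1.41-fold in PIO without passing (edgeR adjusted p = 0.0949, 0.114 and 0.234). With the third 6 h library left out, Gjb2 was also called in GM (log2 fold change 1.12, edgeR adjusted p = 0.0166) and in PIO (1.08, edgeR adjusted p = 0.00665). Without the 8 libraries low in other supporting cell genes, which include the 2 highest libraries of both genes at 6 h, log2 fold changes over the 4 treatments were 1.59 for Gjb6 and 1.02 for Gjb2.

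The connexins did not rise by the same amount. Per length, Gjb6 stood at 17.2% to 25.9% of Gjb2 in the 12 libraries at 6 h (median 22.1%) and at 25.0% to 37.3% at 24 h (median 32.2%), and 11 of the 12 libraries at 24 h were above the highest at 6 h. The ratio was 1.42-fold higher at 24 h (log2 difference 0.50, SD 0.16 at 6 h and 0.19 at 24 h, 2-sided permutation test with 100000 resamples, p = 4e-05, adjusted over 3 tests p = 0.00012). At 24 h the 6 libraries with PIO held 25.0% to 32.5% and the 6 without it 32.0% to 37.3%, with 5 of the 6 with PIO below all without it (log2 difference -0.30, exact permutation test, 2-sided, n = 6 and 6, p = 0.00433, adjusted p = 0.00649). At 6 h the ranges with and without PIO, 17.2% to 25.9% and 20.7% to 25.9%, overlapped (log2 difference -0.06, exact permutation p = 0.561). This ratio was chosen after its values were seen, and the adjustment over 3 tests does not cover that choice. The permutations also took no account of replicate numbers, so these p-values serve only as a description.

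**Figure D2:**
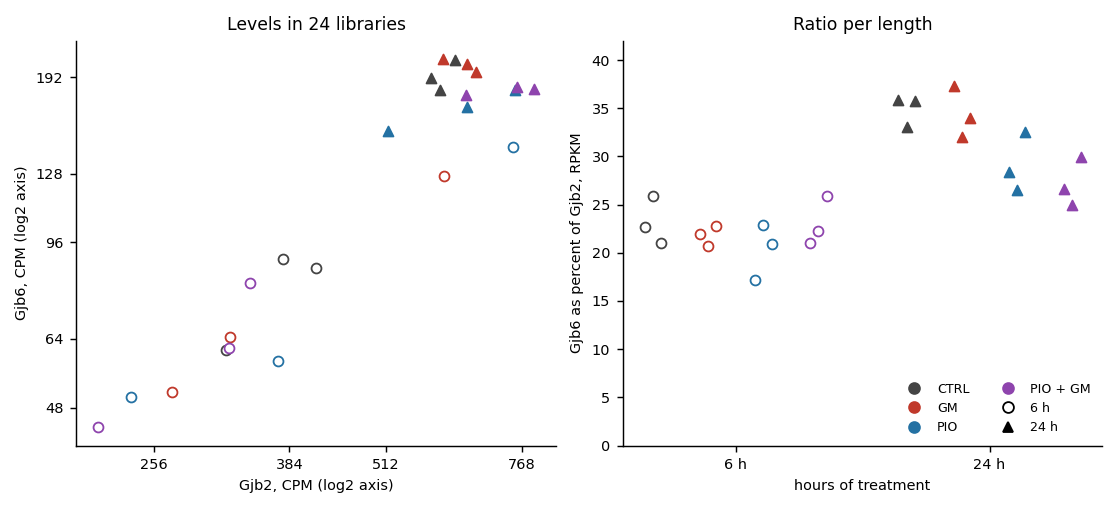
Left, Gjb6 against Gjb2 in CPM (log2 axes) in the 24 libraries. Right, Gjb6 as a percentage of Gjb2 per length (RPKM); open circles are 6 h, filled triangles 24 h and colours the treatments. The libraries at 24 h gather at the top right of the left panel. The ratio, chosen after its values were seen, is higher at 24 h, less so with PIO.

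Among all 20 connexin genes measured, the members held the highest levels per length. Gja1, the connexin of many connective tissue and epithelial cells, followed with 15.0 RPKM, then Gjc3 with 12.3 and Gjc1 with 11.6 RPKM, and every other connexin had a mean of 3.20 RPKM or less. Of the 16 tested over the 4 treatments, 4 were higher at 24 h and 6 were lower. Beside Gjb2 and Gjb6, Gja6, named after its values were seen, was among the higher (0.45 ± 0.10 SE). The beta connexin Gjb1, found in myelinating Schwann cells, fell by 4.33 on the log2 scale, from a median of 7.18 CPM to 0.479 CPM.

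**Figure D3:**
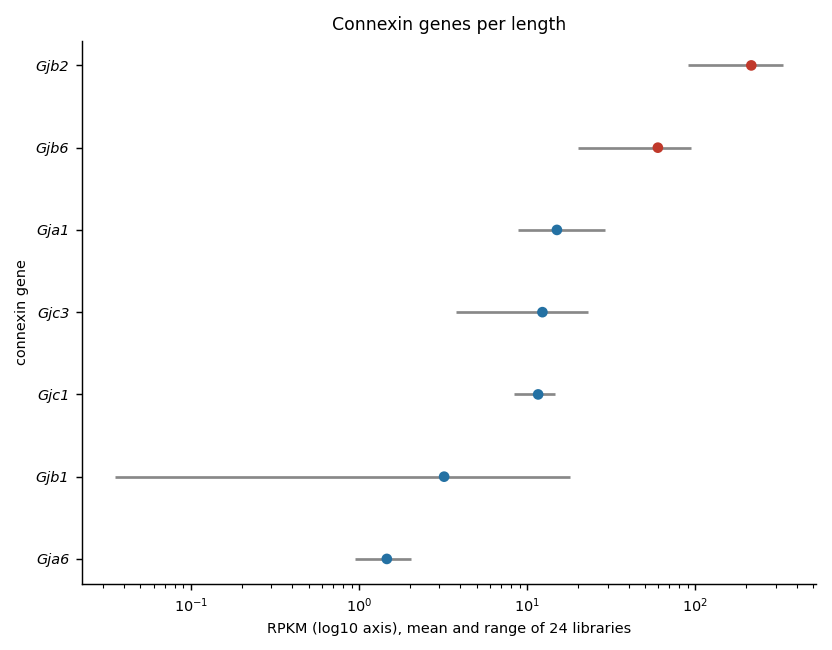
Mean level per length (RPKM, log10 axis) of the connexin genes with a mean of at least 1 RPKM over the 24 libraries, with lines from the lowest to the highest library; red marks Gjb2 and Gjb6. Gjb2 and Gjb6 lie above the other connexins, with means of 215 and 59.8 RPKM.

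Slc1a3 measured 178 to 296 CPM at 6 h (median 230 CPM) and 240 to 426 CPM at 24 h (median 325 CPM). At 24 h its values were 426, 289 and 358 CPM in CTRL, 343, 251 and 321 CPM in GM, 330, 240 and 274 CPM in PIO and 344, 249 and 331 CPM in PIO + GM. The second library was the lowest of each of these groups, and 7 of the 12 libraries at 24 h lay above the highest at 6 h. The rise over the 4 treatments was 1.36-fold (log2 fold change 0.44 ± 0.09 SE, edgeR adjusted p = 0.000259). It was called in CTRL (1.44-fold) and GM (1.42-fold) on their own, with adjusted p near the threshold. In CTRL the call was lost without replicate 1 or 2 at 6 h or replicate 1 or 3 at 24 h (edgeR adjusted p = 0.0711 to 0.162), with log2 fold changes of 0.39 to 0.68 over all 6 omissions. In GM the Slc1a3 call was lost without any 1 of the libraries other than replicate 2 at 24 h (edgeR adjusted p = 0.0693 to 0.155), with log2 fold changes of 0.41 to 0.63.

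Other genes of glutamate uptake and glutamine handling moved in both directions. Of 11 genes on that list, 4 were higher and 6 lower at 24 h over the 4 treatments, with Slc1a3 among the former. The neutral amino acid transporters Slc1a4 and Slc1a5 fell by 1.97 and 1.61 on the log2 scale, and the glutamine transporters Slc38a1 and Slc38a2 by 0.66 and 0.64. The list's median log2 fold change was -0.44.

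Fgfr3 varied widely among libraries of 1 group. At 6 h it measured 98.2, 35.7 and 141 CPM in CTRL, 107, 74.7 and 62.2 CPM in GM, 126, 58.5 and 93.2 CPM in PIO and 55.1, 64.8 and 87.1 CPM in PIO + GM. At 24 h it measured 142, 105 and 180 CPM in CTRL, 98.4, 81.1 and 122 CPM in GM, 148, 78.7 and 146 CPM in PIO and 116, 69.1 and 139 CPM in PIO + GM. In each group at 24 h the second library was again the lowest. The fitted rise was 1.42-fold (log2 fold change 0.50 ± 0.20 SE, edgeR adjusted p = 0.0322), the time ranges overlapped, and no treatment passed on its own. Leaving out any 1 of 8 libraries ended the call (PIO + GM replicate 1, PIO replicate 2 or GM replicate 3 at 6 h, PIO replicate 1 or the third library of any group at 24 h), with edgeR adjusted p between 0.0515 and 0.0613.

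The FGF pathway list was divided as well: of 18 genes tested, Fgfr3 itself included, 5 were higher and 8 lower at 24 h over the 4 treatments. The receptor gene Fgfr2 rose (log2 fold change 1.19 ± 0.13 SE), as did Il17rd, an inhibitor of the pathway (0.94 ± 0.12). Spred1, another inhibitor, fell by 0.78 and the target gene Etv5 fell by 0.70 on the log2 scale. Over the 24 libraries, Fgfr2 was also the gene whose level was most like that of Gjb6 (Pearson r = 0.971), a value that includes the difference between the times. With group means removed, the gene most like Gjb6 was Add3 (0.954).

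Prox1 was the lowest of the members and the one without a time difference. At 6 h it measured 15.8, 9.35 and 23.3 CPM in CTRL, 16.7, 18.6 and 7.21 CPM in GM, 15.2, 14.2 and 8.10 CPM in PIO and 16.9, 14.8 and 17.6 CPM in PIO + GM, and at 24 h all 12 libraries lay between 11.3 and 20.3 CPM. The medians were 15.5 CPM at 6 h and 14.7 CPM at 24 h (log2 fold change -0.02, 95% confidence interval -0.34 to 0.30, edgeR adjusted p = 0.914). Spread within groups was wider at 6 h, with an SD of 0.55 on the log2 scale against 0.17 at 24 h. Leaving out the 8 libraries low in other supporting cell genes took away the 3 lowest Prox1 libraries at 6 h, so that the log2 fold change of -0.25 over the remaining 16 cannot be told apart from that choice.

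Cdkn1b, which encodes the cyclin-dependent kinase (CDK) inhibitor p27, had the smallest called rise. It measured 79.0 to 120 CPM at 6 h and 94.0 to 162 CPM at 24 h, where CTRL held 162, 111 and 156 CPM. The rise was 1.22-fold over the 4 treatments (log2 fold change 0.29 ± 0.08 SE, edgeR adjusted p = 0.00475) and 1.43-fold in CTRL (edgeR adjusted p = 0.0231), where the call was lost without replicate 2 at 6 h or replicate 1 or 3 at 24 h (0.0877 to 0.143). The ranges overlapped, and 6 of the 12 libraries at 24 h were above the highest at 6 h.

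Of 19 tested CDK inhibitors, partners and regulators of p27, Cdkn1b itself included, 9 were higher and 6 lower at 24 h. The related inhibitor genes Cdkn1c and Cdkn2c rose (log2 fold changes 1.84 ± 0.30 and 1.34 ± 0.18 SE), while Cdkn1a, which encodes p21, fell by 1.02. Skp2, whose product marks p27 for destruction, fell by 0.52 on the log2 scale.

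Fabp7, the fatty acid binding protein gene, overlapped between the times. At 6 h it measured 21.6, 28.4 and 39.0 CPM in CTRL, 22.5, 26.8 and 16.3 CPM in GM, 18.5, 43.7 and 9.70 CPM in PIO and 15.1, 28.4 and 23.2 CPM in PIO + GM. Over the 4 treatments it rose 1.43-fold (log2 fold change 0.52 ± 0.18 SE, edgeR adjusted p = 0.0186), and without the 8 libraries low in other supporting cell genes the call was lost (log2 fold change 0.38, edgeR adjusted p = 0.0588). By treatment the difference was 2.03-fold in CTRL, 1.76-fold in GM, 1.25-fold in PIO and 0.948-fold in PIO + GM. In PIO the log2 fold change of Fabp7 was -0.05 without replicate 3 at 6 h and 1.08, and then called, without replicate 2 at 6 h (edgeR adjusted p = 0.0254). It passed in CTRL (2.03-fold, edgeR adjusted p = 0.042), and that call was lost without any 1 of the libraries other than replicate 3 at 6 h (edgeR adjusted p = 0.0609 to 0.145). The effect of PIO at 24 h against 6 h differed by -0.80 on the log2 scale without passing (edgeR adjusted p = 0.482).

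Calls in single treatments were few and are read against all genes. Members higher at 24 h numbered 4 in CTRL (Gjb6, Slc1a3, Fabp7, Cdkn1b), 2 in GM (Gjb6, Slc1a3), 1 in PIO (Gjb6) and 2 in PIO + GM (Gjb2, Gjb6). Without the 8 libraries low in other supporting cell genes, 4 were called in CTRL (Gjb2, Gjb6, Slc1a3, Cdkn1b), 4 in GM (Gjb2, Gjb6 and Slc1a3 higher and Prox1 lower), 2 in PIO (Gjb2, Gjb6) and 4 in PIO + GM (Gjb2, Gjb6, Slc1a3, Cdkn1b), where 3181, 4221, 5604 and 6034 of 16387 genes were called. That omission is not independent of the members, whose deviations followed the list. In all 24 libraries the share of all genes called higher was 14.8% in CTRL, 12.5% in GM, 13.2% in PIO and 17.6% in PIO + GM. None of the 28 member tests for a difference between effects passed, counting the effect of PIO at 24 h against 6 h, that of GM at 24 h against 6 h, and that of PIO with against without GM at each time. In these 4 comparisons 0.00613%, 0%, 0% and 0% of all genes were called, and 1 member test had an unadjusted p under 0.05, Fabp7 for PIO over time. DESeq2 called none of the 28, and over all genes 46, 12, 0 and 0. The genes with an unadjusted p under 0.05 in edgeR were 1653, 266, 293 and 197.

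The second set of comparisons asked whether GM, PIO or both changed the members. In 10 comparisons of treatments, 5 at each time, none of the 70 member tests passed in the main edgeR fit over the 24 libraries, and 3 had an unadjusted p under 0.05. DESeq2 called 1, a Fabp7 test. With a replicate block, a term for the replicate number, edgeR also called 1 Fabp7 test, and 7 had an unadjusted p under 0.05. The number with an unadjusted p under 0.05 was 7 when each time was fitted alone, where 2 Fabp7 tests were called, and 9 without the 8 libraries low in other supporting cell genes, and none of the 70 was called in the latter. Few genes passed at all: at 6 h 0% for GM against CTRL, 0.337% for PIO against CTRL, 1.32% for PIO + GM against GM, 2.64% for PIO + GM against CTRL and 0% for PIO + GM against PIO. In the 6 h comparisons with 0%, 243 and 499 genes had an unadjusted p under 0.05, and DESeq2 called 0 and 1. At 24 h the shares were 0.0123%, 0.153%, 0.11%, 0.478% and 0.0735% in the same order. Comparisons against CTRL share the control libraries and are not independent of each other.

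Fabp7 at 24 h held all 3 of those unadjusted p-values. It measured 53.6, 68.6 and 58.3 CPM in CTRL, 39.9, 33.3 and 41.8 CPM in GM, 34.8, 25.8 and 28.4 CPM in PIO and 25.1, 16.0 and 22.1 CPM in PIO + GM. Each CTRL library was above each library of the other groups, and each PIO + GM library was below each library of the other groups. With PIO + GM the level was 0.35 times that of CTRL (log2 fold change -1.51 ± 0.37 SE, 95% confidence interval -2.28 to -0.74, edgeR adjusted p = 0.0744). PIO alone gave 0.493 times the CTRL level (log2 fold change -1.02 ± 0.36 SE, edgeR adjusted p = 0.32, and 0.0394 with the libraries at 24 h fitted alone), and PIO + GM gave 0.55 times the GM level (-0.86 ± 0.36 SE, edgeR adjusted p = 0.574). In PIO + GM against CTRL at 24 h the log2 fold change was also below 0 for 13 of 14 hair cell markers (median -0.50), 27 of 31 other supporting cell genes (-0.45), all 10 neuron markers (-0.56), all 9 vessel markers (-0.29) and 7 of 10 mesenchyme markers (-0.46), none of them called. It was above 0 for 7 of 10 macrophage markers (median 0.17) and 10 of 16 connexins (0.08), and near 0 for Schwann cell markers (median -0.02). The median over all genes tested was -0.001. Genes of a list were measured in the same libraries and are not independent of each other, and the part of these shifts in the Fabp7 difference was not tested.

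The Fabp7 difference between PIO + GM and CTRL at 24 h thus missed the threshold in the main model over all 24 libraries. It passed with DESeq2 (adjusted p = 0.00943) and in an edgeR fit of the 12 libraries at 24 h alone (adjusted p = 0.00287). With a replicate block in edgeR it passed too (value given below). With any 1 of the 6 libraries compared left out of the main fit, it did not pass (edgeR adjusted p = 0.156 to 0.318). Without the 8 libraries low in other supporting cell genes the difference was -1.24 (edgeR adjusted p = 0.132). Averaged over the presence of GM, an effect added after the data were seen, the Fabp7 level with PIO at 24 h was 0.521 times that without it (log2 fold change -0.94 ± 0.26 SE, edgeR adjusted p = 0.0528). It passed with DESeq2 (adjusted p = 0.0127) and in the edgeR fit of the 12 libraries at 24 h alone (adjusted p = 0.00267). With a replicate block it passed too (value given below). With any 1 of the 12 libraries left out of the main fit, it did not pass (edgeR adjusted p = 0.0646 to 0.131). In that comparison 2.79% of all genes passed. Averages at 6 h gave 0.904 times for Fabp7 (edgeR adjusted p = 0.726), where 16.1% of genes passed for PIO, and no member was among them. For GM averaged in the same way, 0.0123% of genes passed at 6 h and 0.313% at 24 h, again without a member.

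Of the other fatty acid binding protein genes, Fabp5 and Fabp3 were tested and the remaining 6 had at most 24 counts in a library. Neither passed in the 10 treatment comparisons. Fabp3 fell by 0.59 on the log2 scale between 6 h and 24 h over the 4 treatments, opposite to Fabp7.

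**Figure D4:**
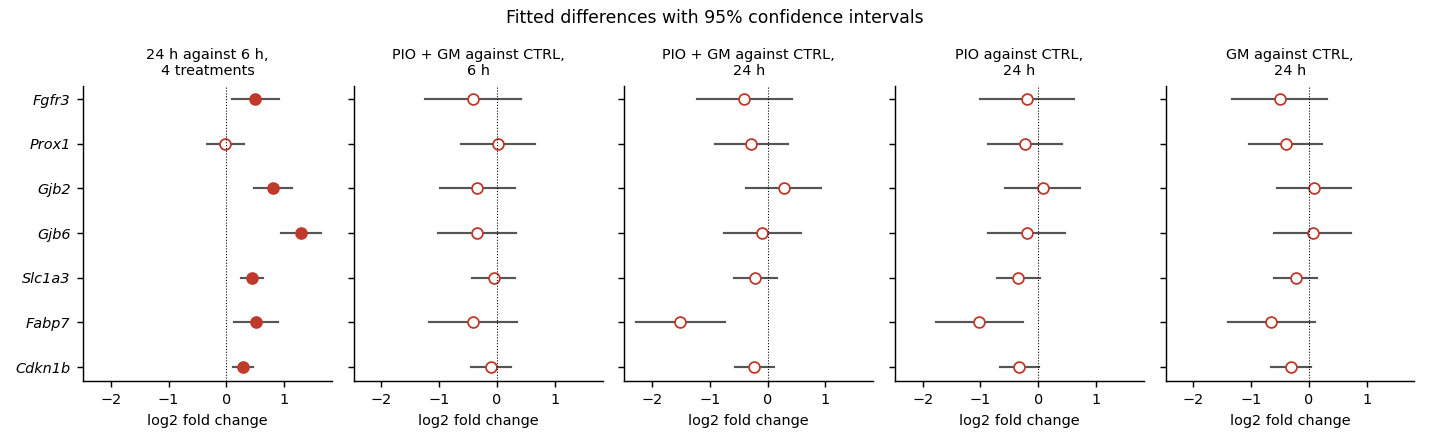
Fitted log2 fold changes of the 7 genes with 95% confidence intervals in 5 comparisons; filled points have an edgeR adjusted p under 0.05 over all genes tested. Points are filled for 6 genes in the time comparison and for none in the treatment comparisons, where Fabp7 lies farthest from 0 (-1.51 for PIO + GM against CTRL at 24 h).

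For the other members each 95% confidence interval of a treatment effect held 0. The nearest to excluding it were Cdkn1b in PIO against CTRL at 24 h (log2 fold change -0.33, interval -0.67 to 0.01), Gjb2 in PIO + GM against PIO at 6 h (-0.63, -1.28 to 0.02), Slc1a3 in PIO against CTRL at 24 h (-0.35, -0.72 to 0.03) and Cdkn1b in GM against CTRL at 24 h (-0.31, -0.65 to 0.03). Groups of 3 did not overlap in 12 of the 70 member comparisons (17.1%), beside 14.1% over all genes and the 10 comparisons. Of these, 5 were Fabp7, at 24 h, and 3 were Prox1, which was lower in GM, PIO and PIO + GM than in CTRL at 24 h. The others were Gjb2 in PIO + GM against CTRL and Gjb6 in PIO + GM against GM at 24 h, and Cdkn1b in PIO + GM against GM and against PIO at 6 h. In PIO + GM against CTRL at 24 h, where 21% of all genes did not overlap, Gjb2 libraries did not overlap (650 to 797 CPM against 586 to 630 CPM), as did not those of Prox1 (12.3 to 15.0 CPM against 15.1 to 20.3 CPM), yet neither passed. The fitted log2 fold changes were 0.28 for Gjb2 (95% confidence interval -0.37 to 0.92, edgeR adjusted p = 0.908) and -0.28 for Prox1 (-0.92 to 0.36, 0.904). Cdkn1b at 6 h was lower in PIO + GM (90.2, 96.6 and 93.0 CPM) than in each GM library (116, 102 and 108 CPM), which did not pass either (log2 fold change -0.22, edgeR adjusted p = 0.396). The p27 partners Ccnd1 and Cdk4, named after their values were seen, did pass: with PIO + GM against CTRL at 6 h the log2 fold changes were -1.18 ± 0.31 for Ccnd1 and -0.57 ± 0.15 SE for Cdk4 (edgeR adjusted p = 0.0491 and 0.0433). With the 12 libraries at 6 h fitted alone, 2 genes in all were called in that comparison, beside 431 in the main fit. In the FGF list 1 gene passed, the target gene Etv4 with PIO + GM against CTRL at 24 h (log2 fold change -1.67 ± 0.33 SE, edgeR adjusted p = 0.0261). Of the marker lists, 1 mesenchyme gene passed: at 6 h Pdgfra was lower in PIO than in CTRL (log2 fold change -0.81, edgeR adjusted p = 0.0142), in PIO + GM than in GM (-0.82, 0.00833) and in PIO + GM than in CTRL (-0.61, 0.0287). In PIO + GM against CTRL at 6 h, the calls of Ccnd1, Cdk4 and Pdgfra cannot all have held with the 12 libraries at 6 h fitted alone, where 2 genes in all were called.

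Some members varied together from library to library and others in opposite directions. After the group means were removed, deviations of Gjb2 and Gjb6 correlated with Pearson r = 0.95 over the 24 libraries (0.97 at 6 h and 0.72 at 24 h). Both ran against Fabp7 at 6 h (r = -0.89 for Gjb2 and -0.79 for Gjb6) and little at 24 h (-0.30 and -0.21). The largest Fabp7 deviations at 6 h were 1.13 in PIO replicate 2 and -1.03 in PIO replicate 3, where Gjb2 deviated by -0.76 and 0.89. Slc1a3 also ran against Gjb2 and Gjb6 at 6 h (-0.83 and -0.82), and gave -0.29 and 0.3 at 24 h. Against Prox1 the values at 6 h were -0.68 for Gjb2 and -0.76 for Gjb6, and at 24 h -0.22 and -0.51. Fgfr3 went with Cdkn1b (r = 0.85 at 6 h and 0.77 at 24 h), and Slc1a3 with Fabp7 (0.89 and 0.51). These values are descriptions over libraries that share groups and scaling.

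**Figure D5:**
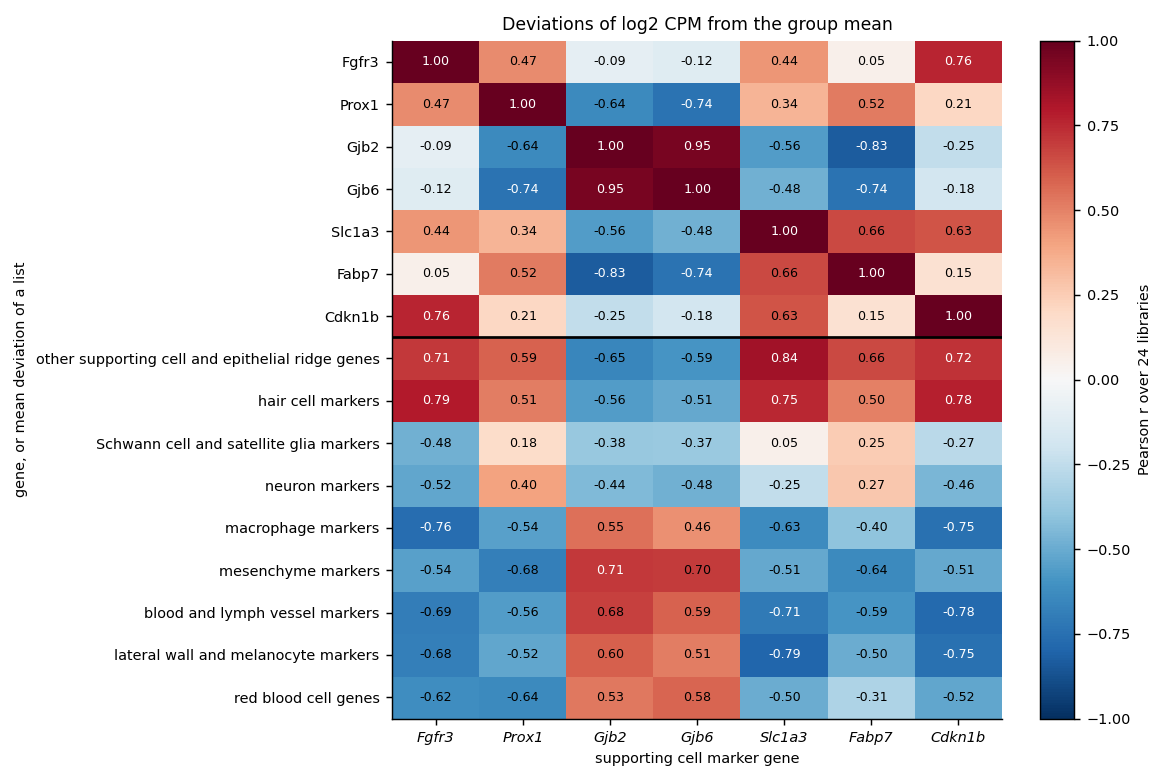
Pearson correlation over 24 libraries of the deviations of log2 CPM from the group mean, between the 7 genes (upper block) and between each gene and the mean deviation of a marker list (lower block). Gjb2 and Gjb6 are red with each other, mesenchyme and lateral wall lists and blue with other supporting cell and hair cell lists, and the other 5 genes show the reverse.

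Deviations were also set against those of the marker lists. Mean deviations of the other supporting cell and epithelial ridge genes correlated positively with Slc1a3 (r = 0.84), Cdkn1b (0.72), Fgfr3 (0.71), Fabp7 (0.66) and Prox1 (0.59), and negatively with Gjb2 (-0.65) and Gjb6 (-0.59). Mean deviations of mesenchyme markers correlated with Gjb2 (0.71) and Gjb6 (0.70) and negatively with each of the other 5 members. Lateral wall and melanocyte markers gave 0.60 for Gjb2 and 0.51 for Gjb6, vessel markers 0.68 and 0.59, macrophage markers 0.55 and 0.46, and red blood cell genes 0.53 and 0.58. Among the positive values were also those of hair cell markers with Fgfr3 (0.79) and Cdkn1b (0.78). Schwann cell and neuron markers did not divide the members in this way, with values of -0.38 and -0.44 for Gjb2 beside -0.48 and -0.52 for Fgfr3. Gjb2 and Gjb6, though listed as supporting cell markers, thus did not vary with the other supporting cell genes in these libraries. Whether the share of each cell type in a library plays a part in these members' levels was not tested.

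Counts of markers of other cell types called over time are read beside all genes. Of the 16317 genes tested, 62.6% were called over the 4 treatments, 5212 higher and 5008 lower. Between 6 h and 24 h over the 4 treatments, 6 of 10 mesenchyme markers were higher and 1 lower (summed CPM 3620 to 5990 at 6 h and 4720 to 7910 at 24 h), with Pdgfra and Tbx18 rising by 0.55 and 1.05 on the log2 scale. Of 10 macrophage markers 7 were higher (57.1 to 133 and 76.4 to 229 summed CPM), including C1qa at 1.65. Of 9 tested lateral wall and melanocyte markers 2 were higher, Slc12a2 and Slc26a4 (486 to 1220 and 778 to 1290 summed CPM). Of 10 Schwann cell and satellite glia markers 5 were lower and 1 higher (412 to 2920 and 331 to 951 summed CPM), Pmp22 falling by 1.87 on the log2 scale, and of 10 neuron markers 8 were lower (173 to 585 and 200 to 368), Tubb3 falling by 1.42 on the log2 scale.

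All 5 tested red blood cell genes were lower at 24 h (182 to 629 and 75.7 to 240 summed CPM), with Hbb-bt falling by 1.82. Of 9 blood and lymph vessel markers 1 was higher and 2 lower (250 to 527 and 228 to 468), and of 14 hair cell markers 7 were higher and 2 lower (571 to 1030 and 702 to 1200), among them Myo6 at 0.54 and Slc17a8 at -1.55. Of 31 tested other supporting cell and epithelial ridge genes, 6 were higher and 6 lower, with a median log2 fold change of 0.16 (summed CPM 6360 to 14400 with a median of 10600 at 6 h, and 5920 to 14600 with a median of 13400 at 24 h). S100b and Matn4 rose by 2.27 and 1.58 on the log2 scale, and Cd44 and Nupr1 fell by 1.47 and 1.48. The part of these shifts in the members' time differences was not tested.

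Outside the lists, the gene whose level over the 24 libraries was most like that of Fgfr3 was Ush1c (Pearson r = 0.927), among 14967 genes with a mean of at least 1 CPM. Wscd2 and Sox21 followed at 0.920 each. For Gjb2 the nearest were Pou3f3 (0.959), Wdr86 (0.952) and Gm20554 (0.949), and for Gjb6, after Fgfr2, Mxd4 (0.965) and Sspn (0.963). Slc1a3 was most like Cntnap4 (0.933), Bdh2 and Tcaf2 (0.912 each), Fabp7 most like Thsd7b (0.877), Ablim1 (0.872) and Thsd7a (0.860), and Cdkn1b most like Eid1 (0.867), Ush1c (0.856) and Prkcz (0.854). By level Prox1 had the weakest nearest neighbours, among them Pclo (0.776) and Apba1 (0.754). All these values include the differences between times and treatments. With group means removed, the nearest genes were Wscd2 for Fgfr3 (0.986), Unc79 for Prox1 (0.928), and Add3 for Gjb2 (0.956) and Gjb6 (0.954). They were Gcnt2 for Slc1a3 (0.9), Zzz3 for Fabp7 (0.929) and Kifbp for Cdkn1b (0.937).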

How the data were processed

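Total RNA of 6 pooled OCs per library was sequenced from 24 libraries as single reads of 76 bases. Per the labels, the authors aligned reads with STAR to mm10, and the deposited table holds raw counts per gene with an Entrez identifier and a length. Whether strand was used, and how reads with several matches were treated, is not given in the sources used here. Counts summed to 7211357 to 15548856 per library. Symbols came from RefSeq on GRCm38.p6 for 24374 of 24454 identifiers.

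The main test was the edgeR (4.0.16) quasi-likelihood test with TMM scaling, filterByExpr and 8 group means, with Benjamini-Hochberg adjustment over 16317 genes and a threshold of 0.05. Levels are TMM-scaled CPM or RPKM, and log2 CPM used a prior count of 2. Correlations are Pearson's. The pipeline was tested on simulated data. Alternatives were library size or RLE scaling, no filter, at least 10 counts in every library, a replicate block, fits of only the libraries compared (the 12 of a time for treatments, the 6 of a treatment for time), DESeq2 (1.42.0), a prior count of 0.5 and leaving out each library. Effects averaged over both backgrounds, the connexin ratio and fits without the 8 libraries low in other supporting cell genes were added after the data were seen.

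Named genes were the members, up to 4 called genes of each list by lowest p, the 3 genes most like each member and the connexins. Members and lists were chosen with earlier results of these data known. Each library is a separate pool of OCs, and p-values measure the spread between these pools. Whether the replicates came from separate litters or days is not given. Proteins were not analysed here, and some genes that the rule names are not reported here.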

Additional observations from a re-analysis of the deposited data

How the results depend on the processing

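Over the 4 treatments, Gjb6, Gjb2, Slc1a3, Fabp7 and Cdkn1b kept their rise and their call without any 1 of the 24 libraries (log2 fold changes 1.23 to 1.46, 0.73 to 0.95, 0.41 to 0.49, 0.43 to 0.71 and 0.25 to 0.33). The number of members called there was 5 to 6. In single treatments, leaving out a library gave 1 to 4 members called in CTRL, 1 to 2 in GM, 0 to 2 in PIO and 2 in PIO + GM. Without the 8 libraries low in other supporting cell genes, 4 were called in GM (Prox1 lower), 2 in PIO and 4 in PIO + GM. In GM 1 was called with library size or RLE scaling, and in PIO 0 in the fit of only the libraries compared. Prox1 had no stable direction: over the 4 treatments its log2 fold change was 0.006 with no filter and -0.10 to 0.08 without single libraries (above 0 for 8 of them: 0.019, 0.019, 0.047, 0.006, 0.075, 0.003, 0.002 and 0.006), and in GM -0.46 to 0.11, the highest without replicate 2 at 6 h. Fabp7 in PIO turned to -0.05 without replicate 3 at 6 h, and was called without replicate 2 (1.08, edgeR adjusted p = 0.0254). Library size scaling exchanged the places of 2 groups in the order of Gjb6.

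Between treatments, Fabp7 accounted for every change in the members' counts. For PIO + GM against CTRL at 24 h 1 member was called with the replicate block (edgeR adjusted p = 0.0244), in the fit of only the libraries compared and with DESeq2. For PIO against CTRL at 24 h 1 was called in the fit of only the libraries compared (edgeR adjusted p = 0.0394). For PIO averaged over both backgrounds at 24 h 1 was called with the block, with only those libraries and with DESeq2 (adjusted p = 0.0188, 0.00267 and 0.0127). Without single libraries Fabp7 in PIO + GM against CTRL at 24 h lay between -1.66 and -1.35 (edgeR adjusted p = 0.156 to 0.318). Counts over all genes moved more: for that comparison 78 became 318 with the block, 276 in the fit of only those libraries, 262 with DESeq2 and 45 with at least 10 counts in every library, for PIO against CTRL at 24 h 25 became 241, 76 and 162 with the first 3 and 16 with no filter, and at 6 h 431 for PIO + GM against CTRL became 2 in the fit of only those libraries and 1543 with the block. The cause was not tested.

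The main fit did not take replicate numbers as pairs. Same-numbered libraries tended to deviate together, most at 24 h, though not in every pair. Correlations were above 0.1 in 15 of 18 such pairs at 24 h (mean r = 0.38, beside -0.18 for different numbers) and in 9 of 18 at 6 h (0.11 beside -0.05), the block within time lowered the common BCV from 0.225 to 0.177, and 8 of 12 libraries at each time correlated best with their own number. Beside the Fabp7 calls, the block gave Cdkn1b a call in PIO + GM over time (0.38, edgeR adjusted p = 0.0304).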

Other observations

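Averaged over both backgrounds, an effect added after the data were seen, PIO went with lower levels of genes in several of the lists at 6 h (16.1% of all genes called, 1510 higher and 1115 lower) while no member passed. Of 31 other supporting cell and epithelial ridge genes 3 were lower, namely the transcription factor gene Sox10 (log2 fold change -0.54 ± 0.13 SE, edgeR adjusted p = 0.0134), Ngfr (-1.35 ± 0.40) and the potassium channel gene Kcnj10 (-0.57 ± 0.18). Sox10 and Ngfr are also genes of glia, and in the same comparison all 10 Schwann cell and satellite glia markers had a log2 fold change below 0 (median -0.72, Erbb3 called at -0.85), as had all 10 neuron markers (-0.43, none called). The median over all genes tested was -0.024. Of 14 hair cell markers 4 were lower: Myo7a (-0.68 ± 0.17), Pou4f3 (-1.02 ± 0.27), Gfi1 (-0.78 ± 0.23) and Slc17a8 (-0.997 ± 0.33). In the list around p27, Ccnd1 was lower at 6 h (-1.20 ± 0.22 SE, edgeR adjusted p = 0.00277) and at 24 h (-0.86 ± 0.22, 0.0381), and Cdk4 and Cdkn1a at 6 h (-0.44 ± 0.10 and -0.59 ± 0.20). At 24 h Fabp5, the other abundant gene of the Fabp7 family, was lower with PIO (-0.52 ± 0.14 SE, edgeR adjusted p = 0.042). Of 10 mesenchyme markers, 3 were lower with PIO at 6 h (Pdgfra -0.81, Pdgfrb -1.02, Col3a1 -0.54) and 3 at 24 h (Col3a1 -0.93, Dcn -0.88, Pdgfra -0.41). No gene of the lists was called higher with PIO in these averages, and genes outside the rule for named genes were named after their values were seen.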
